A study of Mus musculus with 10 samples.

Results

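Among the regions called for RelA in mouse macrophages after 3 h of lipopolysaccharide (LPS), 1712 are here named transient regions without glucocorticoid receptor (GR). They are regions of the RelA list at 3 h of LPS without dexamethasone (Dex). They shared no base pair with a RelA region at 8 h of LPS, also without Dex. Nor did they share one with a GR region of cells given LPS and Dex, or with a region of the input DNA. They made up 34.1% of the 5017 regions listed at 3 h (Wilson 95% interval 32.8 to 35.4), in a series of 115077 regions in all. They were chosen by measured calls, their presence in the first list and absence from the other 3, so that absence is not a finding. A missing call is also not absence of binding, and 14 of the 1712 met a GR region of cells given Dex alone.

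RelA, also called p65, is the transactivating subunit of NF-κB. LPS, a component of the bacterial cell wall, acts through Toll-like receptor 4 to free NF-κB from its inhibitors, and RelA then enters the nucleus and binds DNA. Among the genes it induces are those of its own inhibitors, which help to end the response. GR is the nuclear receptor through which glucocorticoids such as Dex suppress inflammatory genes in macrophages. It binds DNA directly or is held there by other proteins, NF-κB among them.

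The cells were bone marrow-derived macrophages of the C57BL/6J strain, and chromatin immunoprecipitation with sequencing gave 7 RelA libraries, 2 GR libraries and 1 input library. RelA was profiled with Dex given 3 h before 0, 3 or 8 h of LPS, with Dex given late during 8 h of LPS, and without Dex at 0, 3 and 8 h of LPS. GR was profiled with LPS and Dex and with Dex alone, without times in the labels, and input DNA came from untreated cells. Cells for GR were cross-linked with disuccinimidyl glutarate before formaldehyde, those for RelA with formaldehyde alone. Each condition had 1 library, so no difference between conditions has a replicate check and no p-value was computed. The labels do not say how many mice gave the cells, and lists of regions hold no expression values with which to check the cell type.

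For each region the authors deposited a highest and a mean tag density (a signal in units whose scaling is not stated) and a z-score. The lists started at different scores, 8.88 for RelA at 3 h, 10.9 for RelA at 8 h and 9.66 for GR with LPS and Dex. How many reads stand behind each library is not stated in the sources at hand. Input regions met 45 of the 3 h regions, and the 4972 others formed 4 classes. These were 1712 transient regions without GR, 1704 transient regions with GR, 175 sustained regions (called again at 8 h) without GR, and 1381 sustained regions with GR. Here and below, GR without a further word means the list of LPS and Dex. The RelA lists of the rule came from cells without Dex. A region with GR was therefore not shown to hold RelA and GR in the same cells.

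Transient regions without GR were the weakest and narrowest of the 4 classes at 3 h. Their highest tag density had a median of 15.8 (95% binomial interval of the median 15.5 to 16.1), and ran from 0.958 to 77.7 with quartiles of 12.7 and 19.3. The medians were 17.7 for transient regions with GR, 24.4 for sustained regions without GR and 28.0 for sustained regions with GR. The interval of the median did not touch that of any other class, the nearest being 17.4 to 18.1 for transient regions with GR. Median widths followed the same order, 443 bp for transient regions without GR against 498.5 bp, 679 bp and 708 bp for the other classes. These intervals cover counting error within 1 library only. Density and width come from the list on which the rule starts, so this order is a description and was not tested.

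**Figure D1:**
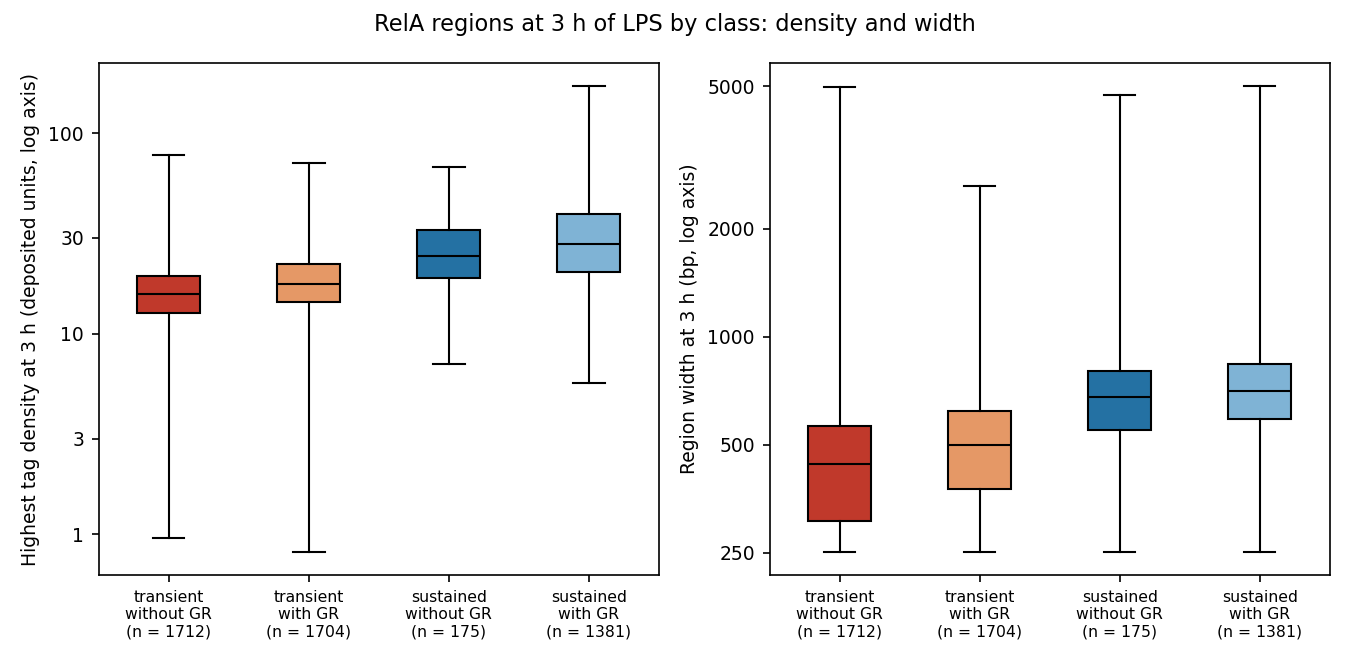
Highest tag density (left, deposited units, log axis) and width (right, bp, log axis) of RelA regions at 3 h of LPS in the 4 classes. Boxes give quartiles and median, whiskers the lowest and highest region. Transient regions without GR have the lowest medians (15.8 and 443 bp), and their boxes overlap those of transient regions with GR but end below those of sustained regions with GR.

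Most transient regions without GR fell in a narrow band of density. Between 10 and 20 lay 1206 of them, or 70.4% (68.2 to 72.6), and 308 more lay between 20 and 30. Only 58 reached 30, a share of 3.39% (2.63 to 4.35), against 7.98% of transient regions with GR, 33.7% of sustained regions without GR and 43.4% of sustained regions with GR. At the low end, 161 had the smallest width in the list, 251 bp. A density below 5 was found at 17, of which 11 had that smallest width and 5 lay on chromosome X, where 46 of all 1712 lay. Inside the class the values went together, with a Spearman correlation of 0.72 between density and score and 0.88 between score and width. These correlations are across 1712 regions of 1 library, which share its depth and its caller.

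The score at which the 8 h list began divided the class almost evenly. A score below the lowest of the 8 h list was found at 859 transient regions without GR, 50.2% (47.8 to 52.5). It was found at 35.1% of transient regions with GR, 11.4% of sustained regions without GR and 8.25% of sustained regions with GR. When a score of at least 11 was asked of the RelA lists at 3 and 8 h and of the GR list, the same rule gave 888 regions, 26.7% (25.3 to 28.3) of the 3320 regions outside input that reached that score at 3 h. Of the 1712, 818 had a score of at least 11, 88 of at least 20 and 15 of at least 30.

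The share of 3 h regions in the class fell as the 3 h score rose. In the lowest quintile of the score, 8.88 to 9.97, 56.3% of the 3 h regions outside input were transient and without GR (53.2 to 59.3). The shares were 49.6%, 34.7% and 24.2% in the next 3 quintiles and 7.34% (5.87 to 9.13) in the highest. Quintiles of density gave 57.5% at the low end and 7.64% at the high end, and quintiles of width 57.2% and 12.6%. The whole lowest quintile of score lay below 10.9, where the 8 h list began, and the rule asks for absence from that list. Density and width went together with score inside the class. The fall is therefore not independent of the rule, and it was not tested.

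Within bands of 3 h density, regions without GR were missing from the 8 h list more often than regions with GR. Of all 1887 regions without GR, 90.7% were not called at 8 h (89.3 to 92.0), against 55.2% (53.5 to 57.0) of the 3085 with GR. For densities from 15 to below 20, 93.5% (91.3 to 95.2) of 629 regions without GR were absent at 8 h, against 72.3% (69.2 to 75.3) of 824 with GR. From 30 to below 50 the shares were 53.6% (43.7 to 63.2) of 97 regions and 24.95% (21.4 to 28.9) of 505. At 50 and above they were 30.0% (14.5 to 51.9) of 20 and 4.33% (2.37 to 7.78) of 231. The share without GR was the higher in all 6 bands of density and in all 6 bands of score. Bands of score from 15 to below 20, for example, gave 84.5% (79.2 to 88.7) and 53.6% (49.5 to 57.6). The bands do not fully match strength, and the highest has no upper limit. Density reached 77.7 in transient and 67.4 in sustained regions without GR, against 171 in sustained regions with GR. The bands were set after the data had been seen, both calls belong to the rule that defines the class, and no test was made.

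**Figure D2:**
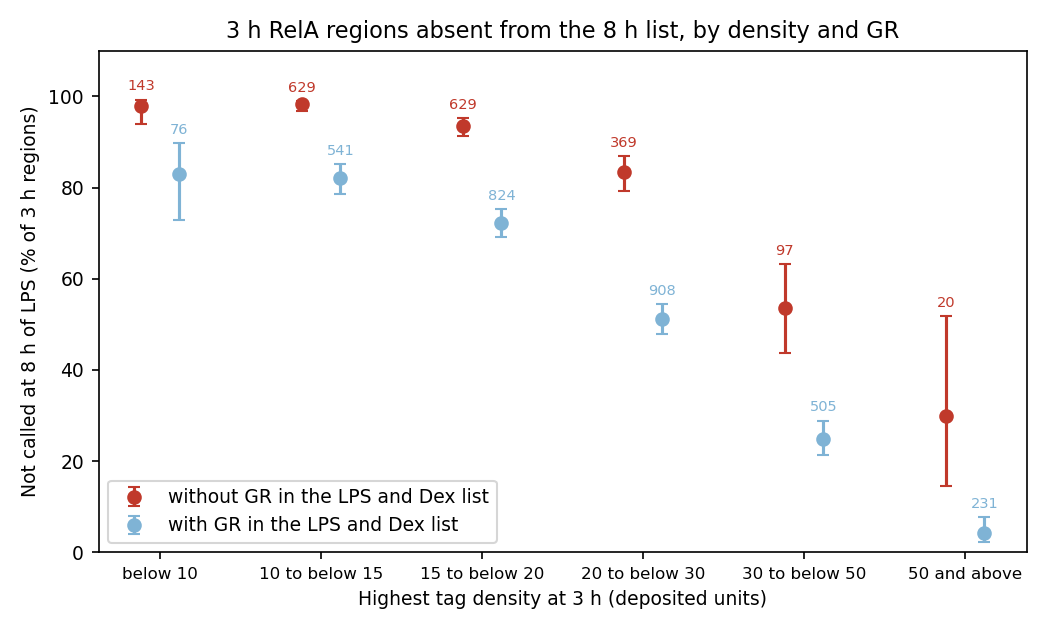
Share of 3 h RelA regions not called at 8 h of LPS (%), by highest tag density at 3 h (deposited units), for regions without GR (red) and with GR (blue) in the list of LPS and Dex. Points are shares, bars Wilson 95% intervals, and numbers the regions in each band. The share falls in both sets from the band that starts at 10 upwards and is higher without GR in every band.

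Seen from GR, transient regions divided into nearly equal parts and sustained regions did not. Of the 3416 transient regions, 50.1% were without GR (48.4 to 51.8), and of the 1556 sustained regions 11.2% (9.77 to 12.9). Over all regions outside input, 31.3% were called at 8 h and 62.0% met GR, the background of the calls that the rule used. Nearly all transient regions with GR met a GR region of high density. Of the 1704, 1664 met a GR region of density 10 or more, 32 one of 5 to below 10, and 8 only one below 5.

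RelA lists that the rule did not use held almost none of the transient regions without GR. Those at 8 h share their LPS time with the list that the rule excludes. Calls in them are therefore not independent of the rule. The same holds for the other RelA lists, whose calls fell mostly on sustained regions, which the rule bars. With Dex before LPS, 0 of 1712 were called at each of the LPS times 0, 3 and 8 h. Resting cells without Dex likewise had 0. A count of 0 allows a share of up to 0.175% in each list. The background was low in these short lists, with 0.603%, 0.241% and 0.0805% of all 3 h regions outside input called after Dex pretreatment at 0, 3 and 8 h, and 0.744% at 0 h without Dex. Transient regions with GR had 0, 0, 1 and 1 calls of 1704 in the same order. Most of the calls were of sustained regions with GR, 29, 11, 3 and 35 of 1381. All 4972 regions outside input had 30, 12, 4 and 37 calls, so few were left for the transient classes. Overlap with input was barred by the rule. An input region lay within 10000 bp at 6 of the 1712 regions, 0.350% (0.161 to 0.763). For all 4972 the count was 8, 0.161% (0.0816 to 0.317). It was 1 for transient regions with GR, 0 for sustained regions without GR and 1 for sustained regions with GR.

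In the RelA list of late Dex, which held 250 regions, a single transient region without GR was called. It was at chr11:75377241-75378051, with a density of 19.8 and a score of 14.7 at 3 h. In the late Dex list a stretch of 251 bp inside it was called, with a density of 16.1 and a score of 9.85, the lowest score of that list. The share of 1 in 1712 was 0.0584% (0.0103 to 0.330), against a background of 4.24% for all 3 h regions outside input. It was 0.704% (0.403 to 1.23) for transient regions with GR, 2.29% (0.892 to 5.73) for sustained regions without GR and 14.0% (12.3 to 16.0) for sustained regions with GR. The interval of transient regions without GR lay below that of each other class. Members were chosen for absence from RelA at 8 h, the LPS time of this list too. Their few calls are therefore not independent of the rule, and the difference was not tested. Strength at 3 h differs between these classes, so they were also compared within quintiles of score. In each of the 5 quintiles at most 1 transient region without GR was called, so that comparison rests on few calls. In the highest quintile, 0 of 73 transient regions without GR and 7 of 155 with GR were called with late Dex. The intervals there, 0 to 5.00% and 2.20 to 9.03%, overlapped.

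GR of Dex alone, also outside the rule, met 14 transient regions without GR. That is 0.818% (0.488 to 1.37), against a background of 17.5%, and against 31.2% (29.0 to 33.4) of transient regions with GR, 0 of 175 sustained regions without GR and 23.5% (21.4 to 25.8) of sustained regions with GR. The gap was present at each level of RelA score. In the lowest quintile 6 of 560 transient regions without GR and 106 of 366 with GR met GR of Dex, and in the highest 0 of 73 and 60 of 155. The 2 GR lists overlap each other, so absence from the first makes absence from the second more frequent, and a call in the Dex list is then not independent of the rule.

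The 14 members met GR regions of Dex of a lower median density than those met by transient regions with GR. Their density ran from 1.79 to 14.8 with a median of 5.08, above the 2.99 of the whole Dex list, and 4 reached 10. Among the 531 transient regions with GR that met GR of Dex, 497 met a region of density 10 or more, and the median density was 18.5. Members were barred from GR of LPS and Dex, which the other class had to meet. The comparison is therefore not independent of the rule. The highest 3 h score among the 14 was 17.6, at chr12:56590922-56592984, where GR of Dex had a density of 14.8 and shared 182 bp at one edge of a region of 2062 bp. At chr1:133000299-133000748 RelA had a density of 21.2 at 3 h and GR of Dex 12.5, and 394 bp were shared. The other 3 of the highest 5 scores were at chr5:70216622-70216949, chr1:172994515-172994942 and chr17:62363958-62364267. They had RelA densities of 3.26, 12.4 and 8.15 and GR densities of 1.79, 6.57 and 1.79, and shared 244, 61 and 57 bp. The GR region met at chr1:172994515 had a score of 38.7, the highest GR score among the 14. Score and density therefore ranked these regions differently.

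**Figure D3:**
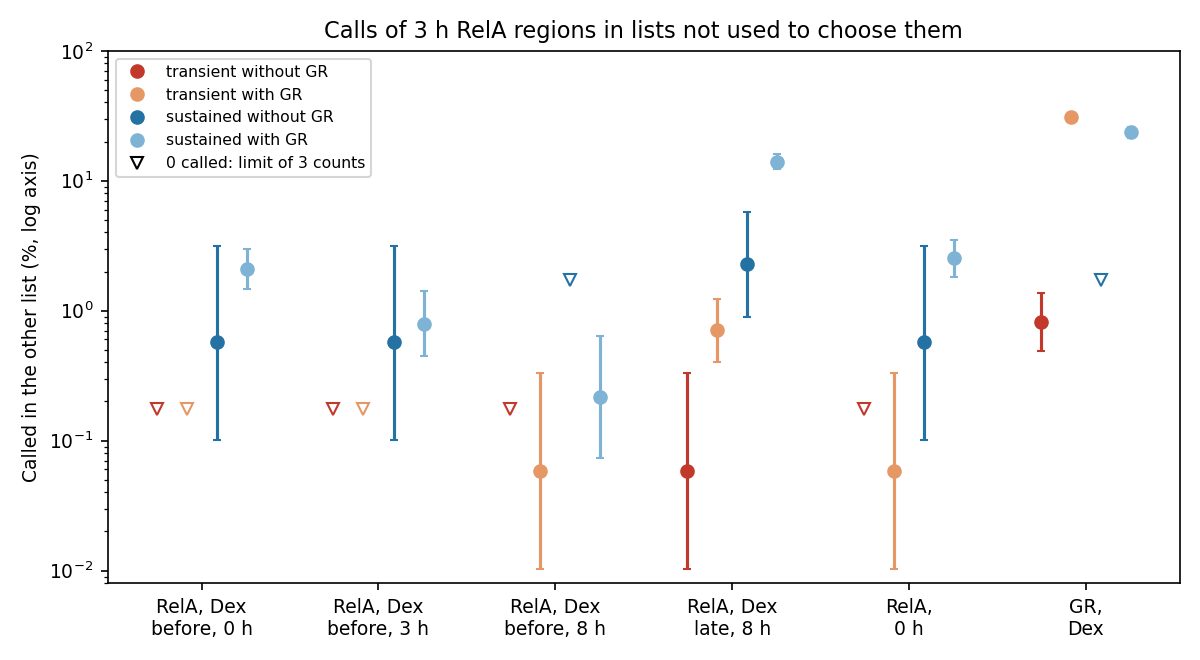
Share of 3 h RelA regions called in each list that the rule did not use (%, log axis), by class. Circles are shares with Wilson 95% intervals, and open triangles mark 0 calls at the limit of 3 counts. Transient regions without GR (red) have 0 calls in 4 RelA lists, 1 with late Dex and 14 in GR of Dex. Calls in the RelA lists and in GR of Dex are not independent of the rule.

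The strongest member was at chr12:120345864-120346821, with a density of 77.7, a score of 53.5 and a width of 957 bp. It was first by density and by score. The nearest GR region lay 5386 bp away and the nearest 8 h region 39371 bp away. Next by score were chr3:148882750-148883835 (score 47.9, density 59.9), chr3:107578449-107579446 (45.9 and 65.5), chr5:93522764-93523587 (40.7 and 48.2) and chr3:7612260-7613121 (39.98 and 44.3). None of these 5 was called in any other RelA list or in a GR list. Their surroundings differed. The nearest GR region was 3934 bp from the region at chr3:107578449 and 46257 bp from that at chr3:7612260, and the nearest 8 h region 49101 bp from that at chr3:148882750 and 2041751 bp from that at chr3:7612260. Chromosome 12 also held the fifth by density, chr12:81986054-81986827 (55.6, with a score of 31.1).

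Density and score parted at a few members. The 6 members with a density of 50 or more included chr8:20020074-20020689, with a density of 53.5 but a score of only 17.2. It lay 416 bp from a GR region. The lowest scores in the class, 8.89, 8.90 and 8.90, were at chr5:148372223-148372474, chr11:49513918-49514169 and chr5:137140534-137140823. The densities there were 5.99, 8.96 and 13.3.

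The widest member was also among the densest. It covered 4982 bp at chr11:83336778-83341760, with a highest density of 55.7 and a mean of 14.5. Within 10000 bp of it stood 4 other 3 h regions, of each of the 3 other classes. The first, 452 bp away at chr11:83342212-83344568, had a like density of 61.3 and was sustained with GR. Its 8 h region, of density 47.8, and its GR region, of density 22.8, began 1970 bp and 2141 bp beyond the edge of the widest member. A neighbour at chr11:83348038-83348894 (48.8) was sustained without GR, and those at chr11:83345344-83346185 (57.8) and chr11:83349513-83350468 (42.7) were transient with GR. Regions of similar density at 3 h thus fell in all 4 classes within a stretch of 13690 bp. Next in width were chr12:27139297-27141555, part of the largest group described below, and chr2:164266904-164269106. The first had 2258 bp and a density of 29.3, the second 2202 bp and a density of 37.2. The second lay 666 bp from a GR region that covered a separate narrow 3 h region.

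Membership turned on few base pairs at some places. The smallest gaps to a GR region were 1, 2 and 5 bp, at chr4:125936795-125937286, chr9:123438381-123438785 and chr12:120551185-120551780, with RelA densities of 18.2, 13.4 and 23.9. Just outside the class, regions at chr11:11677287-11677656, chr2:116825104-116825366 and chr8:37236471-37236973 shared 6, 9 and 19 bp with a GR region and had RelA densities of 20.8, 12.8 and 17.7. The smallest gaps to an 8 h region were 35, 58 and 121 bp, at chr19:10058008-10058750, chr4:124799659-124800298 and chr2:112181148-112181399, with densities of 20.3, 20.8 and 11.02. Among 3 h regions kept out by the 8 h list alone, the smallest overlaps were 80, 147 and 165 bp, at chr18:4335765-4336369, chr11:6291682-6291933 and chr19:10057013-10057707. The densities there were 21.6, 15.8 and 23.1. On chromosome 19 a single 8 h region, 10057542 to 10057973, made the difference. It shared 165 bp with the 3 h region on its left and missed the member on its right by 35 bp.

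GR regions stood near members less often than near 3 h regions as a whole. The gap to the nearest GR region had a median of 11923 bp (quartiles 3809 and 33130 bp), and 782 members, 45.7% (43.3 to 48.0), had a GR region within 10000 bp, against 56.9% (55.5 to 58.3) of all 3 h regions outside input. The GR list held 51639 regions. Within 1000 bp there was one for 8.64% (7.40 to 10.1). For transient regions with GR, the next GR region other than the one they met was within 10000 bp at 61.4% (59.1 to 63.7), with a median of 6201 bp. Sustained regions with GR gave 66.5% and 4852 bp. Sustained regions without GR, at 46.3% (39.1 to 53.7) and 11293 bp, had an interval that overlapped that of the class. The members farthest from GR were at chr5:150439084-150439388, chr2:25988410-25988882 and chr5:135484419-135484778, with gaps of 308976, 279849 and 258467 bp. Their densities were 9.92, 17.02 and 11.6.

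The 8 h list was shorter, with 1890 regions, and its regions too were less often near members than near 3 h regions as a whole. The nearest was within 10000 bp at 13.1% (11.6 to 14.8) of members, against 17.6% (16.5 to 18.6) of all 3 h regions outside input, and within 100000 bp at 34.6% (32.4 to 36.9), with a median gap of 230876 bp. Transient regions with GR had nearly the same shares, 14.0% (12.5 to 15.8) and 36.9% (34.6 to 39.2). Around sustained regions a further 8 h region lay within 10000 bp at 24.6% (18.8 to 31.4) without GR and 26.6% (24.3 to 29.0) with GR. The transient classes stood apart from the sustained ones in their distance to 8 h regions, as the plot of cumulative gaps shows. The classes without GR likewise stood apart from those with GR in their distance to GR. The same 8 h and GR lists define the classes, and strength at 3 h was not matched. These distances are therefore a description, and no difference was tested. Members with an 8 h region within 10000 bp were slightly denser at 3 h, with a median of 17.5 (17.1 to 18.1) against 15.5 (interval ending at 15.8) for the 1488 others. With a GR region within 10000 bp the median was 16.3 (15.9 to 16.7), against 15.2 (14.8 to 15.7) without.

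**Figure D4:**
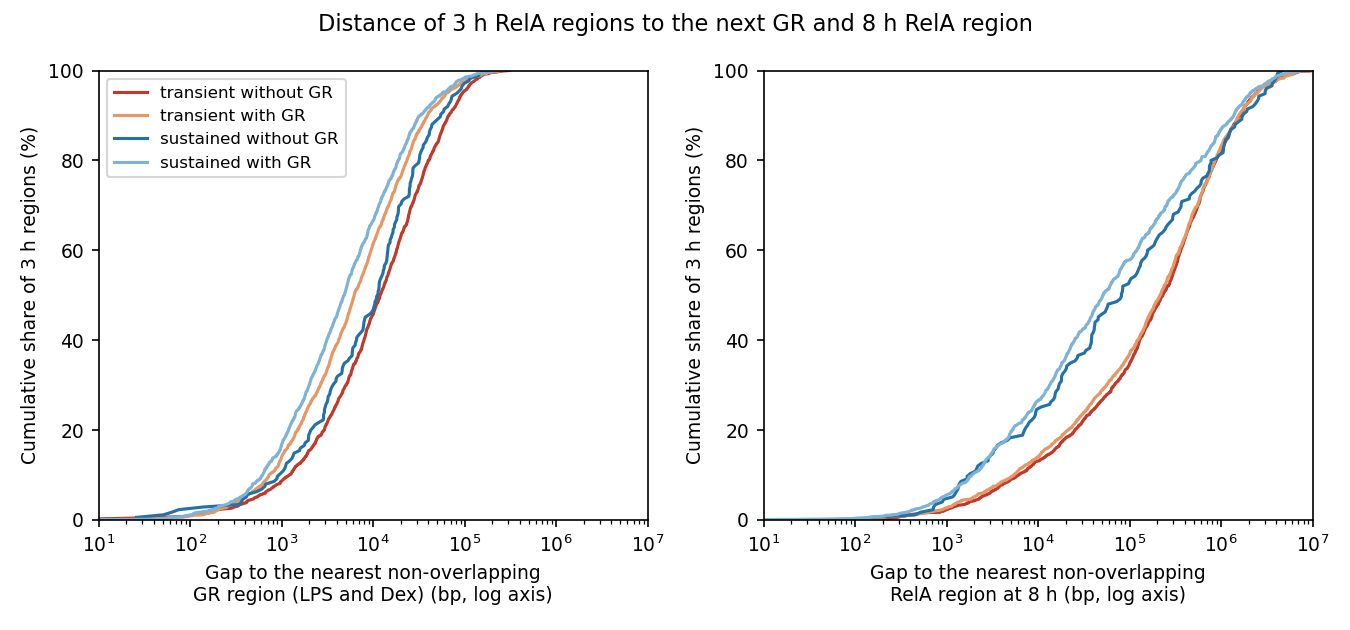
Cumulative share (%) of 3 h RelA regions by the gap in bp (log axis) to the nearest GR region of LPS and Dex (left) and to the nearest 8 h RelA region (right) that they do not overlap, for the 4 classes. On the left the curves without GR lie to the right of those with GR over most of the range, with medians of 11923 and 11293 bp against 6201 and 4852 bp. On the right the curves of the transient classes nearly coincide. The classes are defined by these same lists, so the curves are a description.

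A set of 908 members, 53.0% (50.7 to 55.4), had neither a GR region nor an 8 h RelA region within 10000 bp. Their median density was 15.1, little below that of the whole class. Only 74, or 4.32% (3.46 to 5.39), had neither within 100000 bp, and these were weaker, with a median density of 13.3 (11.8 to 14.8) and a highest of 26.0.

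Most members stood alone at 3 h. Another 3 h region of any class lay within 10000 bp at 513 members, 30.0% (27.8 to 32.2), against 33.2% (31.0 to 35.4) of transient regions with GR, 45.1% (38.0 to 52.5) of sustained regions without GR and 40.7% (38.1 to 43.3) of sustained regions with GR. The nearest such neighbour was itself a member at 43.7% (39.4 to 48.0) of the 513, and members were 34.4% of the 4972 regions outside input. Own-class neighbours had similar shares in both classes with GR, 41.2% (37.3 to 45.3) for transient regions with GR, which were 34.3% of all, and 45.0% (41.0 to 49.2) for sustained regions with GR, which were 27.8% of all. Around transient regions with GR a member was the nearest neighbour at 25.1% (21.7 to 28.9), around sustained regions without GR at 43.0% (32.7 to 54.0) and around sustained regions with GR at 20.3% (17.2 to 23.8). Neighbouring regions share their surroundings and their library, so these counts are a description.

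When members no more than 10000 bp apart were joined, 1441 stood alone, 160 formed 80 pairs, and 111 fell into 28 groups of 3 or more. Grouped members were somewhat stronger, with a median density of 18.2 in groups of 3 or more and 15.5 for those alone. The largest group had 10 members and 4 groups had 6. The group of 10 and the 2 groups of 6 with the highest scores are described next.

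The largest group was at chr12:27128865-27141555, where 10 members covered 8325 bp of 12690 bp, or 65.6%. Their densities were even, from 16.3 to 29.3 with a median of 19.0, and 4 of the 10 had a score below the lowest of the 8 h list. No 3 h region of another class lay among them. On the left the group was bordered by a 3 h region of 2596 bp with a density of 33.0, inside which 251 bp were called at 8 h with a density of 14.8. GR regions of density 26.9 and 39.0 flanked the row at a distance, the left one 4125 bp before the first member and the right one 3222 bp past the last, on a 3 h region that was transient with GR. An eleventh member lay 12477 bp past the last and was counted apart.

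The second group, at chr11:53574736-53593392, was the most isolated of the 3. It held 6 members with densities of 18.7, 44.6, 26.9, 17.7, 10.7 and 16.4 in order of position, so its density was concentrated in a pair of neighbours near its left end. Within 20000 bp on either side there was no other 3 h region, no 8 h region, no late Dex region and no GR region of Dex. A single GR region of LPS and Dex, of density 18.2, lay 3266 bp past the last member.

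The third group, at chr12:112667756-112690823, was mixed. Its 6 members, of density 10.7 to 38.6, shared the interval with 3 regions of other classes, and the densest 3 h region nearby, of 54.9, was sustained with GR. A pair of 8 h regions, of density 36.7 and 17.6, and 4 GR regions lay within 10000 bp. In order of position came 2 members, the 3 other regions and then 4 members.

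**Figure D5:**
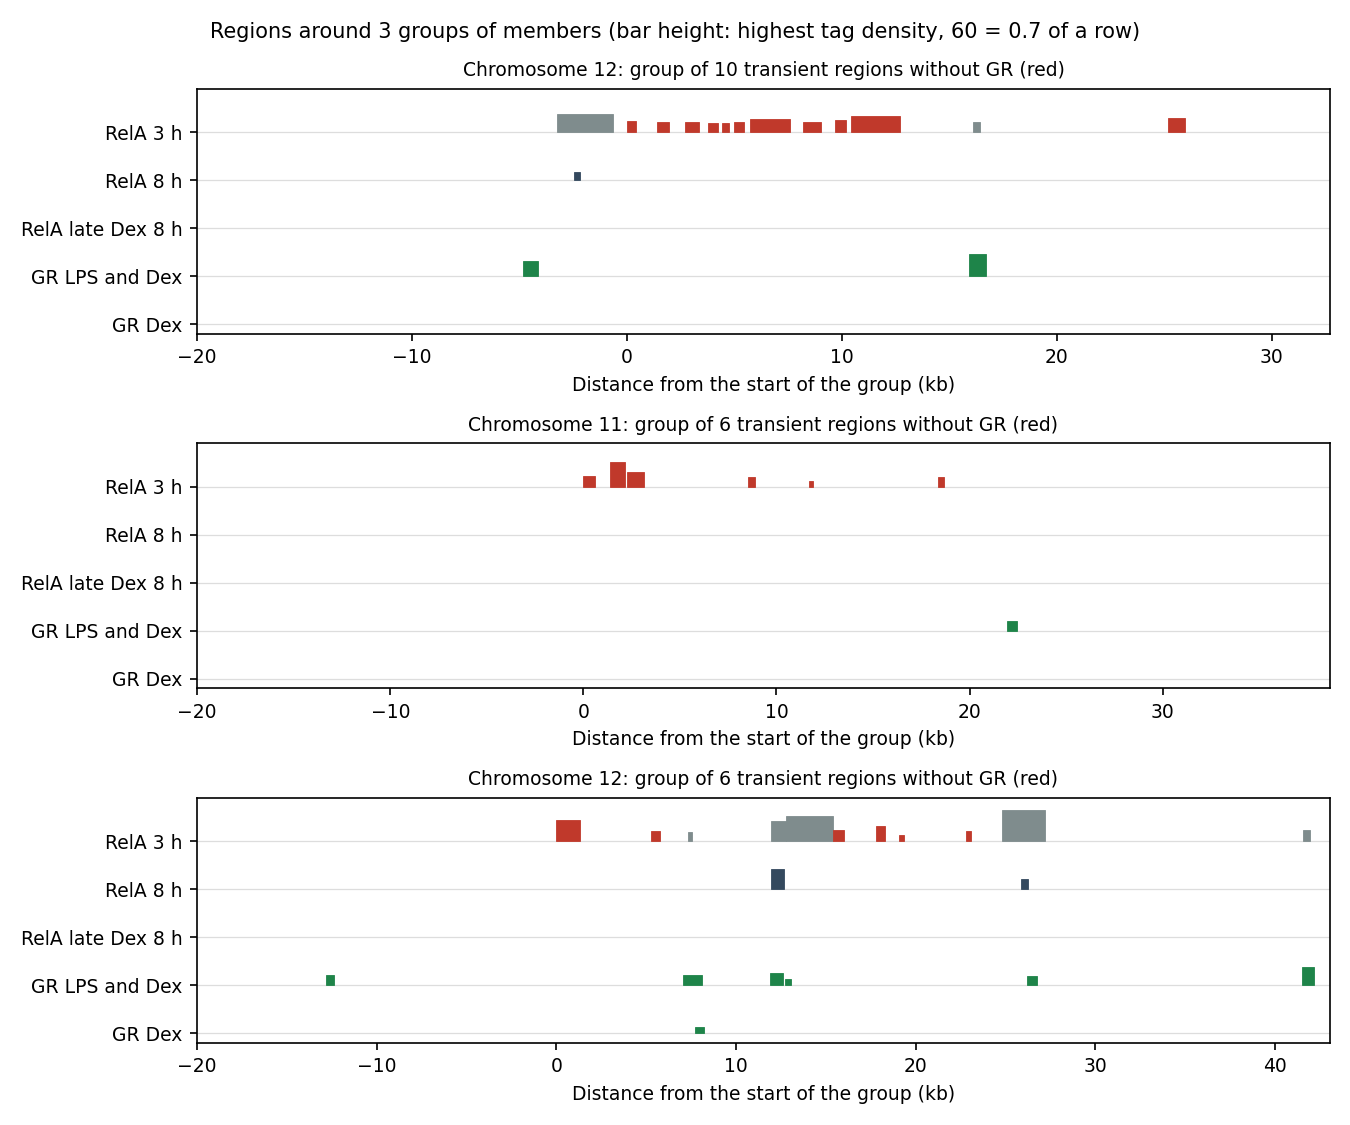
Regions of 5 lists around the group of 10 and 2 of the 4 groups of 6 transient RelA regions without GR (red), by distance in kb from the start of each group. Bar height gives the highest tag density of each list in deposited units, whose scaling between lists is not known, grey marks 3 h regions of other classes, dark blue the other RelA lists and green GR. The 10 members of the first group form an almost continuous row, and the red bar at about 25 kb is counted apart.

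Members were found on every chromosome that had 3 h regions outside input. They numbered from 46 on chromosome X to 130 on chromosome 2, with 1 on chromosome Y, the sole 3 h region there. Their share of the 3 h regions of a chromosome ran from 28.1% (23.1 to 33.6) on chromosome 6 to 40.5% (35.2 to 46.1) on chromosome 5 among the autosomes, and was 41.8% (33.0 to 51.2) on chromosome X. The interval of chromosome 5 did not overlap those of chromosomes 2, 6 and 10, while that of chromosome X overlapped that of every other chromosome. With 21 chromosomes compared, these pairs apart are no firm difference.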

How the data were processed

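Per the submitters' processing notes, CASAVA was used and the build was mm9, with reads of 51 nt per the labels. Which program called the regions, and at what threshold, is not stated in those sources. The authors made 1 list per library, and positions are printed as deposited. Tag density is a deposited signal (highest and mean per region), the score a deposited z-score, and the deposited p-value of a region was not used further. Per the labels' protocols, chromatin was sheared to 400 to 500 bp.

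Overlaps and gaps between region edges were computed in Python 3.11.15 with pandas 2.3.3 and numpy 2.4.6, and checked against base-by-base counts on simulated regions. Shares have Wilson 95% intervals and medians binomial 95% intervals from order statistics (scipy 1.17.1). All cover counting error only. Regions to be named were set by rule: the highest 5 by score and by density, the widest 3, the highest 5 by score in each other list, the 3 largest groups (those of equal size ranked by highest score), the 3 closest to each threshold, the 3 farthest from GR and the 3 lowest scores. The member of high density on chromosome 8 and the neighbours of the widest member were chosen after their values were seen. The members and lists were chosen with earlier results of these data known. No gene annotation or genome of mm9 was used here, so regions are given by position, without genes or sequences.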

Additional observations from a re-analysis of the deposited data

How the results depend on the processing

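The 9 summary values were recomputed under 10 other settings, and 59 of the 90 values lay within the interval of the reported value or, for the number of regions, within 1.5 times. The 31 others follow. Under a reciprocal overlap of 50%, the share of 3 h regions in the class was 45.3%, the median width 418 bp, calls in GR of Dex 4.24%, another member within 10000 bp 18.7%, GR within 10000 bp 57.8% and scores below the lowest at 8 h 53.1%. Centres within 250 bp gave 37.4% in the class, 1.502% with GR of Dex, 17.9% near another member and 49.9% near GR. Under both of these settings a region in the class could still overlap a GR region, and such a region counted as near GR. With gaps of up to 500 bp counted as overlap, 32.6% were in the class and 42.8% near GR. The higher-scoring 50% of the 3 h list gave 473 regions, 19.0% of those kept and outside input, with a median density of 21.6 and a width of 625 bp. Of these, 0.211% met GR of Dex, 9.73% were near another member and 0% were below the 8 h score, the last by construction. A score of at least 11 gave 888 regions, 26.7%, a density of 19.0, a width of 566 bp, 0.338% with GR of Dex, 13.0% near another member, 42.9% near GR and 0.113% below the lowest remaining 8 h score. With GR regions of density 10 or more alone, 39.7% were near GR. Counting both GR lists gave 0% with GR of Dex, and counting late Dex as 8 h gave 0% with late Dex, both by construction. Merging regions within 500 bp left 10.4% near another member. With 1 library per condition no replicate could be left out. No paired analysis was possible because each condition had 1 library. Depth is not known, so a missing call is not absence of binding.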

Other observations

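Among the other groups of transient RelA regions without GR, 4 are given here. At chr11:117826738-117837800, 6 members had densities of 17.3 to 26.1, and 4 RelA regions at 8 h and 1 with late Dex lay within 10000 bp. At chr16:97668584-97684624, 6 members had densities of 15.5 to 23.0, with 1 region at 8 h and 1 GR region within 10000 bp, and 4 of the 6 had scores below the lowest of the 8 h list. At chr2:127161600-127165966, 5 members covered 66.9% of 4366 bp, with densities of 15.5 to 20.9. A group of 4 members at chr17:34046334-34066881 had neither an 8 h region nor a GR region within 10000 bp.

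The mean density as a share of the highest differed little between the classes, with medians of 0.413 for transient regions without GR, 0.407 for transient regions with GR, 0.392 for sustained regions without GR and 0.391 for sustained regions with GR.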
